A study of Rattus norvegicus with 6 samples.

Results

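The 10 genes described here, Mrc1, Cd163, Cd86, Cd80, Il10, Cd68, Adgre1, Trem2, Marco and Lyve1, mark macrophages or the states that macrophages take up in tissue. They were chosen by gene name, and 10 of 10 names were found among the 30562 genes of the count table. Cd68 and Adgre1 are used as general macrophage markers, Lyve1 and Marco as markers of resident or scavenging cells, Mrc1, Cd163 and Il10 as M2-like markers, Cd86 and Cd80 as M1-like markers, and Trem2 as a lipid sensor.

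Macrophages arise from monocytes or from cells seeded into tissues before birth, and they clear debris, present antigen and release cytokines. The M1-like state is reached with bacterial products or interferon and is known for inflammatory cytokines and nitric oxide. The M2-like state is reached with interleukin-4, interleukin-13 or interleukin-10 and is known for scavenger receptors and repair. An intact disc holds few macrophages, and after injury both kinds of marker are used to describe the cells that enter the torn annulus.

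The samples were intervertebral discs of wild-type male Sprague-Dawley rats, 12 weeks old, whose tail discs had been punctured with a needle. The 3 Control libraries came, by the sample records, from animals that received no treatment and, by the study's methods, from discs injected with PBS. The other 3 libraries carry the label AF-PTK@LEV@SPP1 and are called vesicle-labelled. The label names a vesicle made by fusing liposomes with bacterial outer membrane vesicles, which carries an annulus fibrosus-binding peptide on a linker cut by reactive oxygen species and an siRNA against Spp1. That siRNA is described as directed against the mouse gene. It was given at 1 mg/kg in 10 µL, starting 24 h after surgery. Tissue was taken after 14 days by the sample records and after 8 weeks by the methods. The methods state that each group's tissue came from separate rats, while a pair of the Control libraries was nearly identical in its counts.

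The libraries held 17942989, 16565291 and 17489851 counts in Control replicates 1, 2 and 3, and 17074981, 15560728 and 17855184 counts in vesicle-labelled replicates 1, 2 and 3. Levels are normalized CPM, counts divided by library totals that were adjusted with edgeR's TMM factors, always in that order of replicates. A floor of 3 counts corresponds to between 0.154 and 0.193 CPM in a library, and it covers counting error only. Control replicates 2 and 3 differed by little more than counting noise: their ratio to counting noise was 1.33, and 16 of 14393 genes (0.111%) differed between them. The other within-group pairs had ratios from 51.3 to 107, with 39.6% to 56.6% of genes differing. Control replicates 2 and 3 were therefore summed and counted as 1 sample, which leaves 3 vesicle-labelled samples against 2 Control samples.

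Spp1, the siRNA's target and itself a product of lipid-laden macrophages, stood at 8114, 4408 and 4414 CPM in the Control libraries and at 8047, 6893 and 8451 CPM in the vesicle-labelled libraries. The groups overlapped, and the libraries labelled as given the siRNA were not the lower ones. The log2 fold change was 0.31 (SE 0.37, edgeR adjusted p = 0.628), and without Control replicate 1 it was 0.81. The labelled treatment is therefore not visible at its target's RNA, and each direction given here is between libraries as labelled.

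The sample records give rat as the organism but speak of mice where they describe the tissue, and they describe macrophages sorted from the disc by F4/80 and CD11b, while the methods describe whole rat disc tissue. The leading genes by counts were Col1a1, Col1a2, Sparc, Col2a1 and the mitochondrial gene Mt-co1, with 4.7%, 3.14%, 2.68%, 2.22% and 2.15% of counts on average. Col1a1, Col1a2 and Col2a1 encode the collagens of annulus and cartilage, and Sparc a matrix protein of the same tissues, which goes against a pure macrophage sort. The 10 markers together held 0.056%, 0.0356% and 0.0359% of counts in the Control libraries and 0.022%, 0.0391% and 0.0265% in the vesicle-labelled libraries. The values are therefore read as those of mixed disc tissue, where fewer cells of a type and less RNA per cell cannot be told apart.

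Of the 10 markers, 9 had enough counts to be tested. Marco, a scavenger receptor of macrophages in lung and lymphoid tissue, was listed at 0 counts in each of the 6 libraries and was not tested. In the edgeR quasi-likelihood fit over 15537 genes, called at an adjusted p under 0.05, 2 of the 9 were lower in the vesicle-labelled libraries, Il10 and Cd68, against 2.57% of all genes tested. In the same edgeR fit 0 of the 9 were called higher, against 1.13% of all genes. At an unadjusted p under 0.05 there were 4 lower and 1 higher, or 5 of 9, against 25.4% of all genes in either direction, which is also the background of the unadjusted counts given for each gene list. DESeq2 called 4 lower and 0 higher, against 9.27% and 7.29% of all genes, and limma-voom 2 lower and 0 higher, against 2.03% and 0.895%. With the 6 libraries kept as separate samples edgeR called 4 lower and 1 higher, against 9.93% and 8.20%. In 4 markers, Cd68, Mrc1, Il10 and Trem2, each vesicle-labelled library lay under each Control library, against 21.9% of all genes tested. In 1 marker, Lyve1, each lay above, against 23.9%. The median log2 fold change of the 9 was -0.75, against 0.05 over all genes tested. A share of 4 in 9 against 21.9% rests on few genes, and the genes were chosen with earlier results known.

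The calls rested on few libraries. Over all genes, edgeR called 575, with 175 higher and 400 lower (69.6% lower). With the 6 libraries kept as separate samples it called 2727 (54.8% lower), and DESeq2 called 2572 (56.0% lower). Without Control replicate 1 it called 280, and without vesicle-labelled replicate 1 it called 113. Without vesicle-labelled replicate 2 or without vesicle-labelled replicate 3 it called 0, where 3109 and 2699 genes had an unadjusted p under 0.05; no other tool was run on those samples. No marker and no gene named here was called by edgeR in either of those fits.

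**Figure D1:**
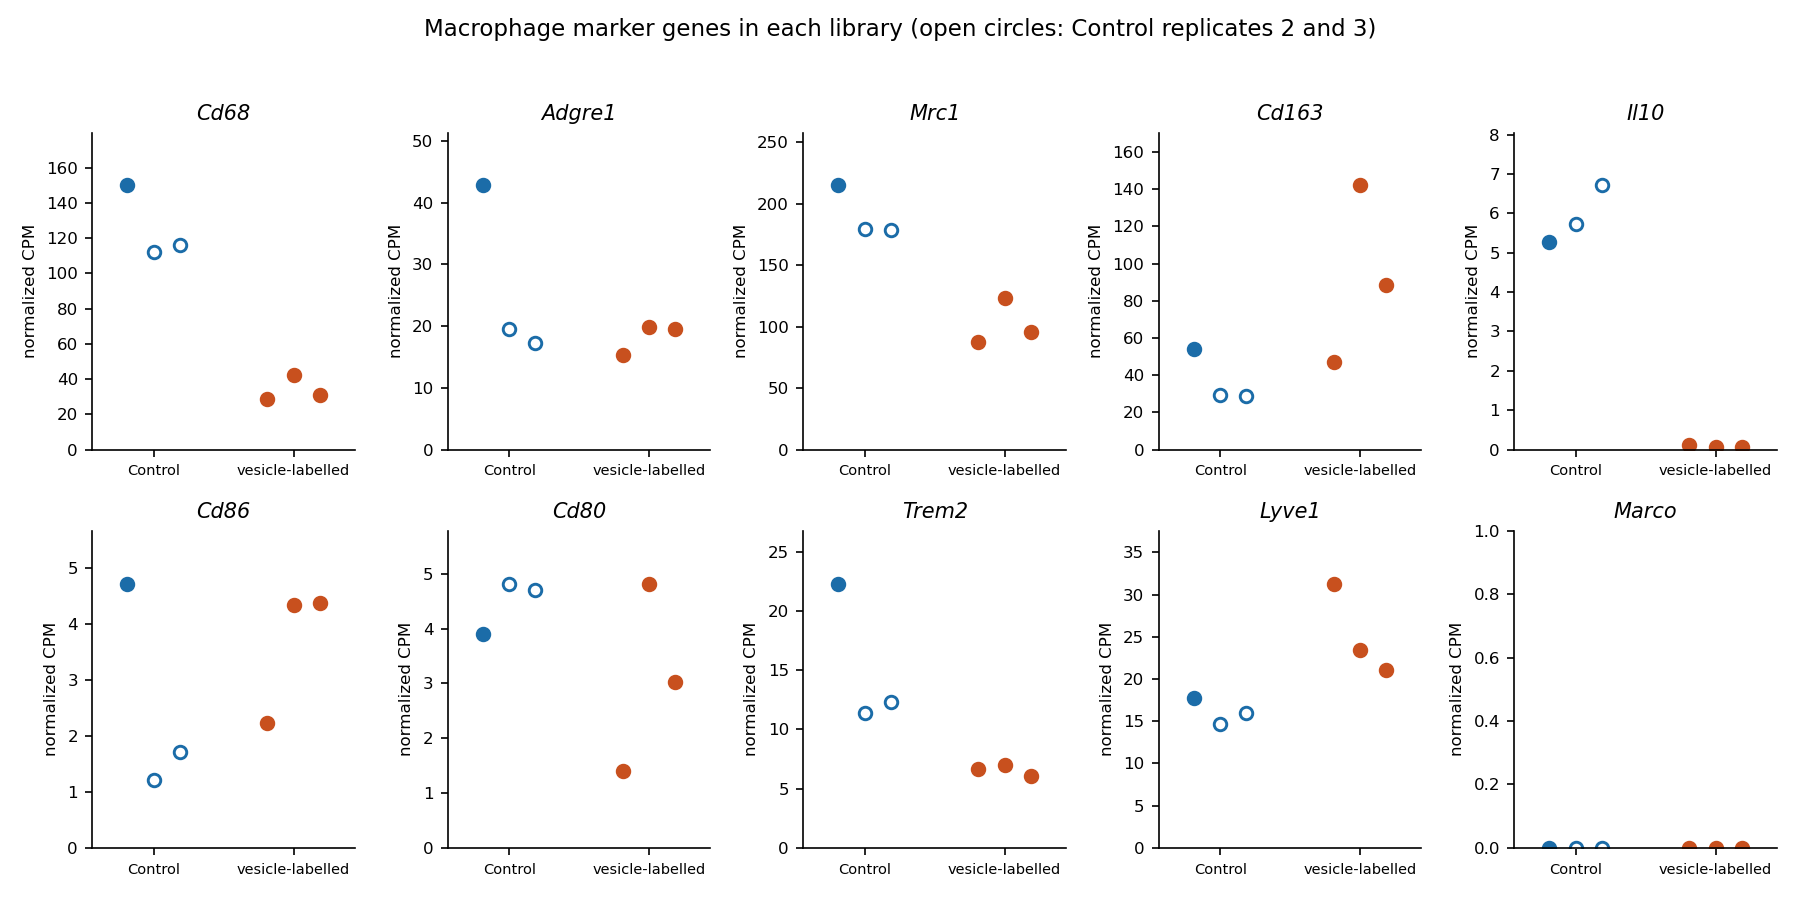
Normalized CPM (linear vertical axes from 0, each panel on its own scale) of the 10 marker genes, with 1 point per library; Control is blue and the vesicle-labelled libraries are orange, and open circles are Control replicates 2 and 3, counted as 1 sample. Cd68, Mrc1, Il10 and Trem2 separate with the orange points low, Lyve1 separates with them high, Marco is at 0, and the groups overlap for the other genes.

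The general macrophage markers differed from each other. Cd68, a heavily glycosylated protein of the lysosome and endosome membrane, stood at 149.9, 112 and 116 CPM in the Control libraries and at 28.5, 42.1 and 30.9 CPM in the vesicle-labelled libraries. Each Control library was high, each of the others was low, and the groups did not overlap. The mean was 33.8 ± 7.24 CPM (SD, n = 3) against 132 ± 25.3 CPM (SD, n = 2). Its log2 fold change was -1.97 (SE 0.22, edgeR adjusted p = 0.0231), and the two-sided exact permutation p was 0.1, the smallest this design can give. The edgeR adjusted p was 0.0571 without Control replicate 1, and 0.0565, 0.0679 and 0.139 without vesicle-labelled replicate 1, 2 or 3, so that leaving out any of these 4 libraries ended the call. Over the 13 alternatives the adjusted p ran from 3.23e-12 with DESeq2 to 0.139, and the log2 fold change from -2.15 to -1.77.

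Adgre1 encodes F4/80, an adhesion G protein-coupled receptor on the surface of mature macrophages. Its level was 42.8, 19.5 and 17.3 CPM in the Control libraries and 15.3, 19.9 and 19.6 CPM in the vesicle-labelled libraries. Control replicate 1 stood alone at the top, and the other 5 libraries lay together, so the groups overlapped. The log2 fold change was -0.75 (SE 0.37, edgeR adjusted p = 0.267), and without Control replicate 1 it was -0.03 (edgeR adjusted p = 0.956, within a range of 0.213 to 0.956 over the alternatives).

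Among the M2-like markers, Mrc1, the mannose receptor that takes up glycoproteins and microbes, stood at 215, 179.8 and 179 CPM in the Control libraries and at 87.6, 123 and 95.9 CPM in the vesicle-labelled libraries. The groups did not overlap, with the vesicle-labelled libraries low. Its log2 fold change was -0.96 (SE 0.19), and the adjusted p of 0.0616 by edgeR missed the threshold. It passed with the 6 libraries kept (edgeR adjusted p = 0.016), with DESeq2 (adjusted p = 0.000205) and with no filter on low counts (edgeR adjusted p = 0.0472), within a range that reached 0.206. The exact permutation p was 0.1.

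Cd163, the receptor that clears haemoglobin bound to haptoglobin, did not follow Mrc1. It stood at 54.0, 29.5 and 29.0 CPM in the Control libraries and at 47.1, 142 and 88.2 CPM in the vesicle-labelled libraries. Vesicle-labelled replicates 2 and 3 were above every Control library, whereas replicate 1 lay under Control replicate 1, so the groups overlapped. The log2 fold change was 1.15 (SE 0.53, edgeR adjusted p = 0.246), with an exact permutation p of 0.3. With 1 library left out it ran from 0.7 (without vesicle-labelled replicate 2) to 1.64 (without Control replicate 1). The spread inside the labelled group, 92.6 ± 47.8 CPM (SD, n = 3), was wide.

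Il10 encodes the cytokine interleukin-10, which damps inflammatory gene expression in macrophages. It had 103, 89 and 110 counts in the Control libraries and 2, 1 and 1 counts in the vesicle-labelled libraries. These counts correspond to 5.28, 5.72 and 6.71 CPM and to 0.117, 0.0603 and 0.0569 CPM. The vesicle-labelled libraries were all under the floor of 3 counts, and the groups did not overlap. Summed over libraries, 302 counts against 4 gave a depth-corrected ratio of 75.2, with a 95% counting interval from 29.1 to 278. That interval pools the 6 libraries, Control replicates 2 and 3 included, and leaves out variation between animals. The edgeR log2 fold change was -6.11 (SE 0.4). The gene was called lower (edgeR adjusted p = 0.0119, exact permutation p = 0.1). The edgeR adjusted p was 0.0679 without vesicle-labelled replicate 2 and 0.13 without vesicle-labelled replicate 3, within a range of 1.37e-11 to 0.13, so that leaving out either library ended the call.

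Of the M1-like markers, Cd86 and Cd80 encode the B7 ligands through which antigen-presenting cells stimulate T cells. Cd86 stood at 4.72, 1.22 and 1.71 CPM in the Control libraries and at 2.23, 4.34 and 4.38 CPM in the vesicle-labelled libraries. Control replicate 1 was the highest of the 6 and the other Control libraries the lowest, so the groups overlapped. Its log2 fold change was 0.24 (SE 0.59, edgeR adjusted p = 0.824, exact permutation p = 0.7), and without Control replicate 1 it was 1.29. Cd80 stood at 3.9, 4.82 and 4.7 CPM in the Control libraries and at 1.41, 4.82 and 3.02 CPM in the vesicle-labelled libraries. The groups overlapped again, with vesicle-labelled replicate 1 the lowest. The log2 fold change was -0.50 (SE 0.52, edgeR adjusted p = 0.579, exact permutation p = 0.5). It was -0.19 without vesicle-labelled replicate 1 and -0.97 without vesicle-labelled replicate 2. Cd80 shares 76 bases with Timmdc1 on the opposite strand, and whether counting used strand is not given in the sources used here.

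Trem2, a receptor for lipids and lipoproteins on macrophages, microglia and osteoclasts, stood at 22.3, 11.4 and 12.3 CPM in the Control libraries and at 6.64, 6.99 and 6.03 CPM in the vesicle-labelled libraries. The vesicle-labelled libraries lay close together and under each Control library. Its log2 fold change was -1.39 (SE 0.29), and the adjusted p of 0.0699 by edgeR missed the threshold. It passed with the 6 libraries kept (edgeR adjusted p = 0.0338) and with DESeq2 (adjusted p = 0.00176), within a range that reached 0.223, and without Control replicate 1 the log2 fold change was -0.87. The exact permutation p was 0.1.

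Lyve1, a hyaluronan receptor of lymphatic endothelium and of some resident macrophages, stood at 17.8, 14.7 and 16.0 CPM in the Control libraries and at 31.3, 23.4 and 21.1 CPM in the vesicle-labelled libraries. It was the only marker of the 10 whose vesicle-labelled libraries all lay above the Control libraries. The log2 fold change was 0.60 (SE 0.21, edgeR adjusted p = 0.163, exact permutation p = 0.2), and only the fit of the 6 libraries passed (edgeR adjusted p = 0.0498, within a range of 0.0498 to 0.256). The count table gives the gene the biotype pseudogene, and a noncoding gene with 2 to 5 counts a library overlaps 2726 of its bases on the same strand.

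Lyve1 also marks lymphatic vessels, so their markers were read beside it. Of 6 lymphatic markers tested, edgeR called 0, with 1 lower at an unadjusted p under 0.05, 1 lower with DESeq2 and 0 with limma-voom. By edgeR with the 6 libraries kept as separate samples, 1 of these markers was called lower. Their sum was 161, 185 and 179.6 CPM in the Control libraries and 153, 93.1 and 106 CPM in the vesicle-labelled libraries, led by Pdpn, which alone stood at 123, 127 and 125 CPM against 131, 52.7 and 72.4 CPM. Of the 6, 4 were fitted lower and 2 higher, and apart from Pdpn and Reln they are named after their values were seen. Ccl21, the chemokine of lymphatic vessels, stood at 9.7, 27.5 and 25.1 CPM against 0.411, 2.47 and 2.28 CPM, lower without overlap (log2 fold change -3.40, SE 0.77, edgeR adjusted p = 0.0795). The log2 fold change was -0.79 for Tbx1, -0.55 for Pdpn and -0.09 for Reln, and it was 0.12 for Mmrn1 and 0.27 for Flt4, the receptor for lymphatic growth factors. Prox1, the transcription factor that defines lymphatic endothelium, lay between 0.103 and 0.549 CPM in the 6 libraries, and was under the floor of 3 counts in Control replicate 1 and vesicle-labelled replicate 3. The part of lymphatic vessels in the Lyve1 level was not tested. Stab2, another hyaluronan receptor and one singled out after its values were seen, stood at 3.23, 0.386 and 0.122 CPM in the Control libraries and at 9.57, 13.6 and 7.91 CPM in the vesicle-labelled libraries (log2 fold change 2.62, SE 0.99, edgeR adjusted p = 0.186).

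Levels relative to Cd68 describe the markers against a general macrophage gene inside each library, and such ratios do not depend on how libraries are scaled. They are ratios of CPM without correction for gene length, so only their differences between libraries are read. Il10 and Marco had too few counts for a ratio. The log2 ratio of Cd163 to Cd68 was -1.47, -1.92 and -2.00 in the Control libraries and 0.73, 1.76 and 1.51 in the vesicle-labelled libraries. The groups were far apart, with a difference of 3.05 on the log2 scale. For Mrc1 the log2 ratio was 0.52, 0.68 and 0.62 against 1.62, 1.55 and 1.63, with little spread in either group and a difference of 1.01. The difference was 2.39 for Cd86, 1.32 for Cd80, 1.34 for Adgre1, 0.66 for Trem2 and 2.56 for Lyve1. With 1 library left out these differences ran from 2.84 to 3.35 for Cd163, 0.95 to 1.04 for Mrc1, 2.17 to 3.05 for Cd86, 0.98 to 1.68 for Cd80, 1.23 to 1.75 for Adgre1, 0.54 to 0.92 for Trem2 and 2.29 to 2.78 for Lyve1. The value for Cd86 was 3.05, and that for Adgre1 1.75, without Control replicate 1. In these 7 ratios the groups did not overlap, and the exact permutation p was 0.1 for 6 of them and 0.2 for Cd80 (0.117 and 0.2 after adjustment over the 7). Each of the 7 stood higher relative to Cd68 in the vesicle-labelled libraries, where Cd163, Lyve1 and Cd86 were also fitted higher on their own. Cd68 itself was called lower there, so any gene that fell less than Cd68 stands higher in such a ratio. The share of all genes that separate in this way was not computed, and the 7 ratios are a description only.

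**Figure D2:**
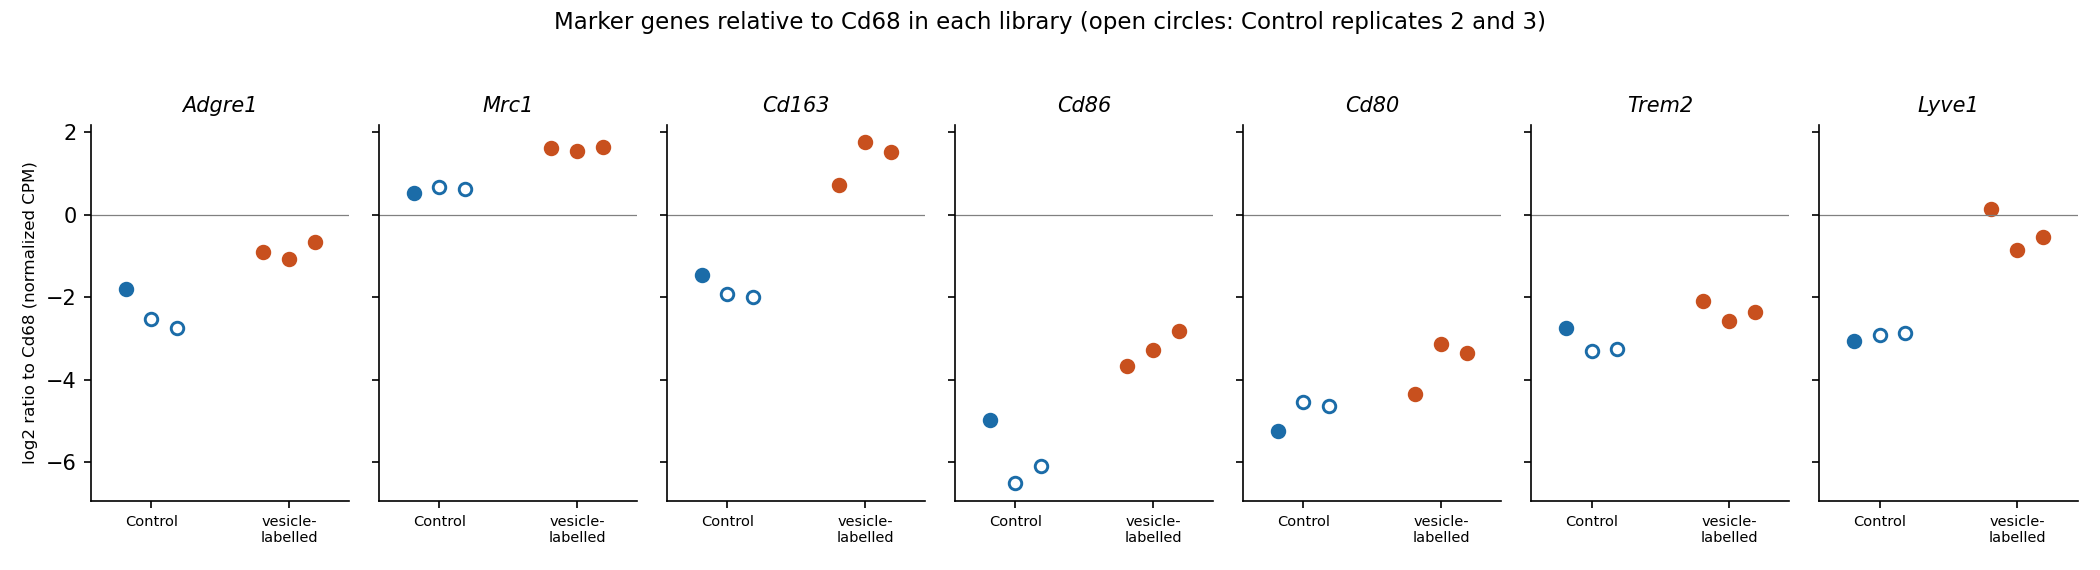
Log2 ratio of each marker's normalized CPM to that of Cd68 (shared vertical axis), with 1 point per library; Control is blue, the vesicle-labelled libraries are orange, and open circles are Control replicates 2 and 3. The groups do not overlap in any of the 7 panels, with differences from 0.66 (Trem2) to 3.05 (Cd163).

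Part of this depended on the reference gene. Against Adgre1, Cd163 differed by 1.71, Lyve1 by 1.22 and Cd86 by 1.05 on the log2 scale, with the vesicle-labelled libraries higher and no overlap. Mrc1, Cd80 and Trem2 turned, with differences of -0.33, -0.02 and -0.68, and the groups overlapped for Mrc1 and Cd80. Control replicate 1 was the lowest Control library for Mrc1, Cd80 and Lyve1 against Adgre1. The Control log2 ratios were 2.33, 3.2 and 3.37 for Mrc1 and -3.46, -2.02 and -1.88 for Cd80. For Lyve1 they were -1.27, -0.41 and -0.12. These ratios to Adgre1 were not recomputed with a library left out. The exact permutation p was 0.1 for Cd163, Lyve1, Cd86 and Trem2, which is 0.14 after adjustment over the 7. A ratio of Cd163 to Mrc1, chosen after the values were seen, was 0.251, 0.164 and 0.162 in the Control libraries and 0.538, 1.16 and 0.92 in the vesicle-labelled libraries. Its log2 difference was 2.04 with no overlap (exact permutation p = 0.1). The pair was picked because of its values, so this separation is a description and not a test. Cd163 on its own overlapped between the groups.

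A wider list of macrophage and monocyte genes lay mostly lower in the vesicle-labelled libraries, but few passed. Of 20 tested, 2 were called lower by edgeR and 0 higher, with 7 lower and 0 higher at an unadjusted p under 0.05, 7 lower with DESeq2 and 2 lower with limma-voom. The median log2 fold change was -0.83, against 0.05 over all genes. Cd14, the co-receptor for bacterial lipopolysaccharide, fell from 151, 134 and 134 CPM to 38.1, 36.1 and 41.4 CPM (log2 fold change -1.89, SE 0.12, edgeR adjusted p = 0.0119). Msr1, a scavenger receptor for modified lipoproteins, fell from 43.3, 45.5 and 45.5 CPM to 9.99, 17.7 and 8.94 CPM (log2 fold change -1.87, SE 0.31, edgeR adjusted p = 0.0463). Without Control replicate 1, and also without vesicle-labelled replicate 1, 1 gene of the list was called.

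Vesicle-labelled replicate 1 stood apart from its group in the sum of this list, but not in each of its genes. Cd14, for example, stood at 38.1, 36.1 and 41.4 CPM in that group. The most abundant gene of the list, Lyz2 (lysozyme), stood at 1831, 1266 and 1246 CPM in the Control libraries. It stood at 271, 1241 and 1399.9 CPM in the vesicle-labelled libraries. The summed list was 3789, 2589 and 2583 CPM against 773, 2297 and 2384 CPM. Replicate 1 held the lowest level of Cd163, Cd86 and Cd80 in its group as well. Mpeg1, a pore-forming protein of phagocytes, was also lowest in replicate 1. It nevertheless lay lower in each library of the group, with 286, 260.2 and 259.6 CPM against 56.6, 165 and 114 CPM (edgeR adjusted p = 0.15).

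Among 16 tested genes of the resident and M2-like list, which does not hold the 10 markers, 5 were called lower and 0 higher by edgeR, with 9 lower and 0 higher at an unadjusted p under 0.05, 8 lower with DESeq2 and 5 lower with limma-voom. Their median log2 fold change was -1.05, with 12 fitted lower and 4 higher. The 4 higher genes, named after their values were seen, were Timd4 (0.43), Clec10a (0.19), F13a1 (0.15) and Stab1 (0.13). Their groups overlapped. Il1rn, the interleukin-1 receptor antagonist, fell from 52.0, 65.4 and 66.7 CPM to 3.05, 10.2 and 9.91 CPM (log2 fold change -2.94, SE 0.51, edgeR adjusted p = 0.0495). Folr2, a folate receptor of resident macrophages, fell by 1.42 on the log2 scale (SE 0.17), and Il4r, the interleukin-4 receptor chain, by 1.13 (SE 0.11). Gas6 and Klf4, the most abundant of the list, did not pass (edgeR adjusted p = 0.0802 and 0.567). Retnla was listed at 0 in the 6 libraries. With either Control replicate 1 or vesicle-labelled replicate 1 left out, 1 gene of this list was called.

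The M1-like list, again without the 10 markers, held the steepest falls among the called genes named from these lists. Of 17 tested, 6 were called lower and 0 higher by edgeR, with 7 lower and 1 higher at an unadjusted p under 0.05, 7 lower and 1 higher with DESeq2, and 4 lower with limma-voom. The median was -0.68, with 12 fitted lower and 5 higher. Il12a, an interleukin-12 subunit named after its value was seen, stood at 2.41, 0.257 and 0.488 CPM against 7.64, 8.5 and 7.0 CPM. It was higher without overlap (log2 fold change 2.5, SE 0.76, edgeR adjusted p = 0.13). With the 6 libraries kept it passed (edgeR adjusted p = 0.0451). Nos2, the inducible nitric oxide synthase, fell from 197, 299.8 and 306 CPM to 1.06, 3.86 and 3.42 CPM (log2 fold change -6.50, SE 0.57, edgeR adjusted p = 0.0196). Il6, an inflammatory cytokine, fell from 8.41, 18.4 and 16.5 CPM to 0.117, 0.362 and 0.455 CPM (log2 fold change -5.36, SE 0.57, edgeR adjusted p = 0.023). Ptgs2, the inducible cyclooxygenase, fell by 4.96 on the log2 scale (SE 0.70) and Slamf1, a receptor of activated lymphoid and myeloid cells, by 3.26 (SE 0.55). Without Control replicate 1 the list had 4 genes called lower and 1 higher, and without vesicle-labelled replicate 1 it had 3 called lower. M1-like and M2-like genes were thus both among the genes called lower, while Cd86 and Cd80 were not.

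Genes tied to Trem2 and to lipid-laden macrophages behaved in more than one way. Of 19 tested, 5 were called lower and 0 higher by edgeR, with 7 lower and 0 higher at an unadjusted p under 0.05, 7 lower with DESeq2 and 5 lower with limma-voom. The median was -0.56. Apoe, an apolipoprotein bound by Trem2, fell from 2002, 1663 and 1697 CPM to 424, 366 and 288 CPM (log2 fold change -2.37, SE 0.23, edgeR adjusted p = 0.0212). Gpnmb, a glycoprotein of lysosome-rich macrophages, fell by 1.96 on the log2 scale (SE 0.17), Cstb, a cathepsin inhibitor, by 1.23 (SE 0.12), and Ctsd, a lysosomal protease, by 1.15 (SE 0.16). The fifth call was Plin2, a lipid droplet protein named after its value was seen, with a log2 fold change of -0.97. Tyrobp, which encodes the signalling adaptor of Trem2 and was also singled out afterwards, stood at 88.9, 47.4 and 44.5 CPM against 16.7, 41.3 and 42.8 CPM (edgeR adjusted p = 0.258). The list's most abundant genes were Spp1 and Ctsb (cathepsin B, edgeR adjusted p = 0.0582). The list had 3 calls without Control replicate 1, and by edgeR 0 without vesicle-labelled replicate 1.

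Beside Il10, 14 genes of a list written for its pathway were tested, not all of them specific to it. Of these, edgeR called 4 lower and 0 higher, with 7 lower and 0 higher at an unadjusted p under 0.05. There were 7 lower with DESeq2 and 4 lower with limma-voom. The median was -0.39. Socs3, a feedback inhibitor induced through Stat3, fell from 114, 161 and 157 CPM to 18.3, 15.2 and 19.6 CPM (log2 fold change -2.95, SE 0.20, edgeR adjusted p = 0.0119). Bcl3 and Sbno2, nuclear factors that interleukin-10 induces, fell by 2.43 (SE 0.18) and 1.67 (SE 0.12) on the log2 scale. The fourth was Il4r, already named as the interleukin-4 receptor chain and counted among the resident and M2-like calls. Socs3 is likewise among the M1-like calls, so these lists are not independent. Jak1, the kinase of the receptor, stood at 239, 247 and 246 CPM against 227, 241 and 222 CPM, and Stat3 at 207, 228 and 223 CPM against 159, 137 and 146 CPM (edgeR adjusted p = 0.682 and 0.0794). Without Control replicate 1 there were 4 calls, and without vesicle-labelled replicate 1 there were 3.

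Among 15 scavenger receptors beside Marco, Cd163 and Mrc1, edgeR called 2 lower, Msr1 and Cxcl16, and 0 higher, with 6 lower and 3 higher at an unadjusted p under 0.05, 6 lower and 3 higher with DESeq2, and 2 lower with limma-voom. The median was -0.25. Cxcl16, a membrane chemokine that also binds oxidized lipoprotein, fell from 71.1, 50.7 and 46.6 CPM to 20.1, 18.7 and 21.3 CPM (log2 fold change -1.58, SE 0.18, edgeR adjusted p = 0.026). The most abundant, Colec12 and Scara3, had log2 fold changes of -0.48 and 0.58 and did not pass (edgeR adjusted p = 0.103 and 0.115). By edgeR 1 was called lower and 1 higher without Control replicate 1, and 0 without vesicle-labelled replicate 1.

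Of 7 receptors and relatives of Cd80 and Cd86, edgeR called 2 lower and 0 higher, with 3 lower and 1 higher at an unadjusted p under 0.05, 2 lower with DESeq2 and 2 lower with limma-voom. Icos, a costimulatory receptor of T cells, fell from 3.69, 3.79 and 4.88 CPM to 0.705, 0.844 and 0.854 CPM (log2 fold change -2.33, SE 0.28, edgeR adjusted p = 0.0276). Cd276, a B7 relative that stromal cells also make, fell by 1.10 on the log2 scale (SE 0.15), and Vsir, an inhibitory relative and the most abundant of the list, had a log2 fold change of 0.64 (edgeR adjusted p = 0.179). The median was -0.37. By edgeR 0 were called without Control replicate 1, and 1 without vesicle-labelled replicate 1.

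Osteoclasts, which share the monocyte lineage and also express Cd68 and Trem2, had markers that were lower with them. Of 10 tested, 5 were called lower and 0 higher by edgeR, with 8 lower at an unadjusted p under 0.05, 8 lower with DESeq2 and 4 lower with limma-voom. The median was -2.01. Their sum was 6712, 4377 and 4393 CPM in the Control libraries and 1218, 1194 and 843 CPM in the vesicle-labelled libraries, led by Ctsk. Ctsk, the collagen-degrading cathepsin K, fell by 2.93 on the log2 scale (SE 0.38), Dcstamp, needed for osteoclast fusion, by 3.34 (SE 0.22), Atp6v0d2, a proton pump subunit, by 2.72 (SE 0.44), and Acp5, the tartrate-resistant phosphatase, by 2.02 (SE 0.30). Mmp9, a gelatinase, stood at 1121, 834 and 842 CPM against 300.3, 347 and 287 CPM. No marker of this list was at 0 in all libraries. With either Control replicate 1 or vesicle-labelled replicate 1 left out, 1 gene was called. The part of osteoclasts in the lower Cd68 and Trem2 levels was not tested.

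**Figure D3:**
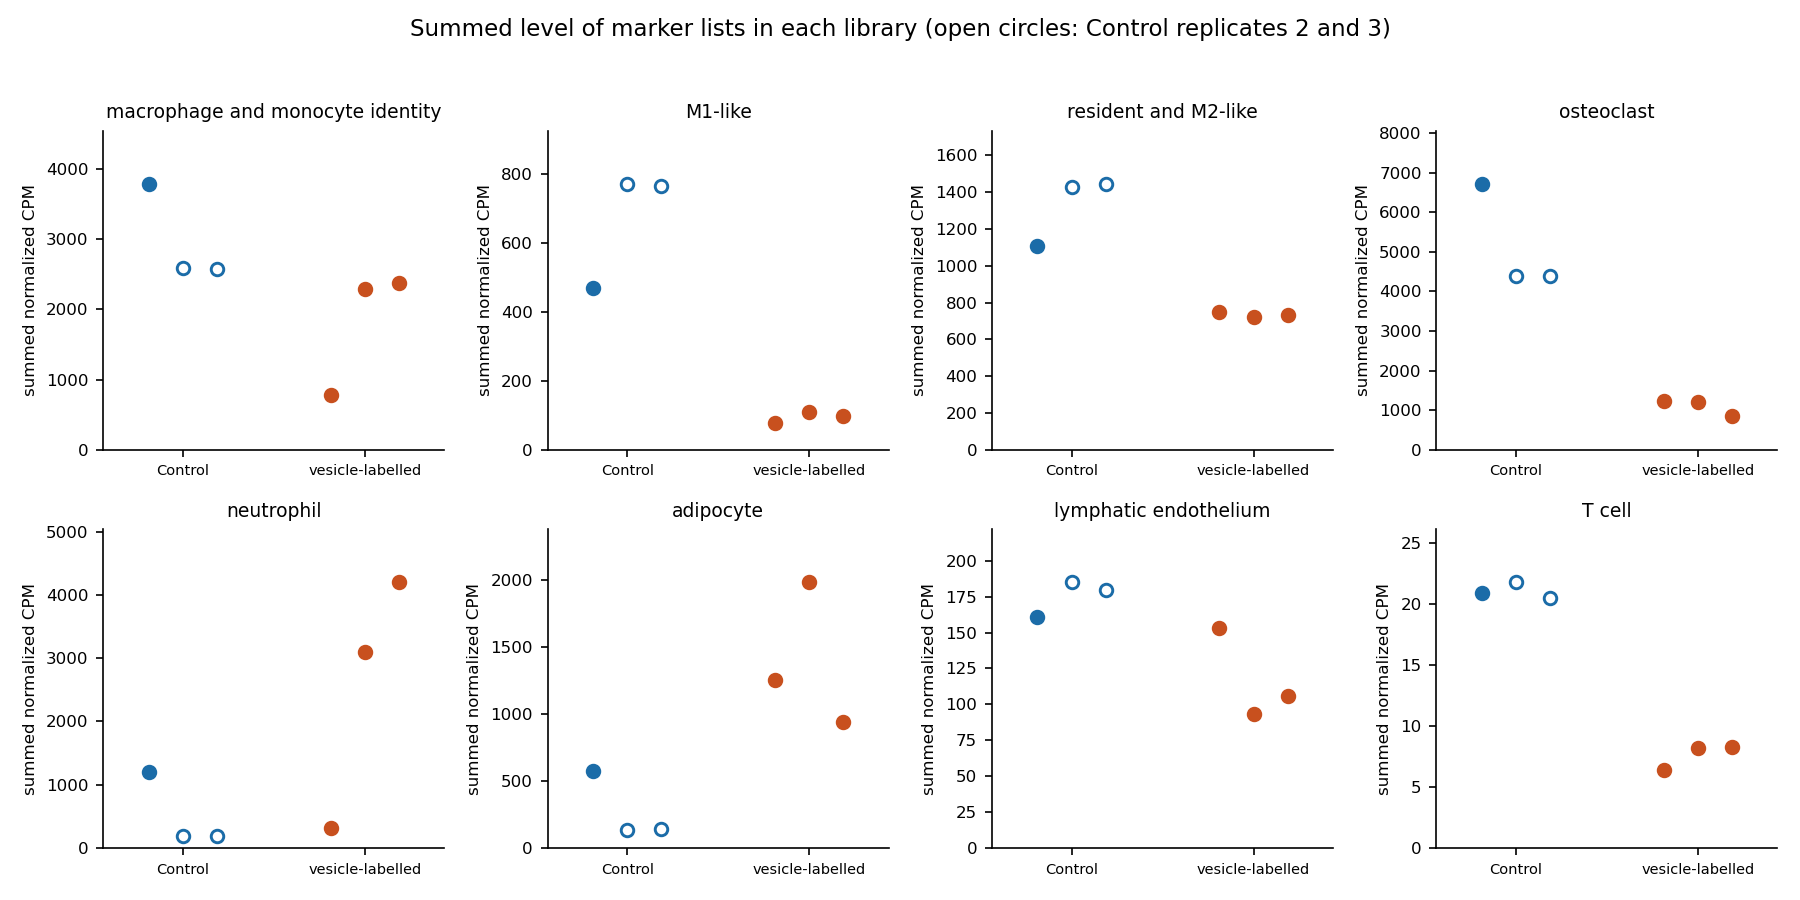
Summed normalized CPM (linear vertical axes from 0, each panel on its own scale) of 8 marker lists, with 1 point per library; Control is blue, the vesicle-labelled libraries are orange, and open circles are Control replicates 2 and 3. The adipocyte and neutrophil panels aside, each sum lies lower in the vesicle-labelled libraries, the adipocyte sum lies higher and the neutrophil sum overlaps.

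Neutrophil and B cell markers varied widely between libraries of the same group, as Cd163 and Cd86 did. The 9 neutrophil markers tested summed to 1201, 194 and 182 CPM in the Control libraries and to 315, 3100.4 and 4197 CPM in the vesicle-labelled libraries, led by S100a9 and S100a8, and the groups overlapped. The 8 B cell markers summed to 90, 43.4 and 37.7 CPM against 71.3, 115 and 148 CPM, led by Ebf1 and Cd79a. In both lists edgeR called 0, with 0 at an unadjusted p under 0.05, 0 with DESeq2 and 0 with limma-voom, and the medians were 1.98 and 1.23. Without Control replicate 1, 1 B cell marker was called. Control replicate 1 and vesicle-labelled replicates 2 and 3 were the high libraries for the neutrophil sum, as they were for Cd86 and Cd163. The part of these cells in the marker levels was not tested.

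T cell markers, whose receptors bind Cd80 and Cd86, lay mostly lower. Of 7 tested, edgeR called 2 lower, Cd8a and Cd2, and 0 higher, with 5 lower at an unadjusted p under 0.05, 4 lower with DESeq2 and 2 lower with limma-voom. The median was -1.26, and the sum was 20.9, 21.8 and 20.5 CPM against 6.4, 8.19 and 8.25 CPM. By edgeR 0 were called without Control replicate 1 or without vesicle-labelled replicate 1. Of 9 dendritic cell markers, which share Cd80 and Cd86 with macrophages, edgeR called Fscn1, an actin-bundling protein, and Ccr7, a homing receptor, lower (log2 fold changes -1.52 and -2.44) and 0 higher, with 2 lower at an unadjusted p under 0.05, 2 lower with DESeq2 and 1 lower with limma-voom. Their median was 0.03, with 4 fitted lower and 5 higher. Their sum was 123, 148 and 144 CPM against 70.5, 90 and 82.4 CPM. It was led by Fscn1, which alone stood at 53.9, 96.5 and 94.9 CPM against 29.0, 24.2 and 25.7 CPM. Without Control replicate 1 edgeR called 1 of them and without vesicle-labelled replicate 1 it called 0.

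The other tissue lists had 0 calls by edgeR with Control replicates 2 and 3 summed. With the 6 libraries kept as separate samples, edgeR called 5 blood endothelium markers lower. It also called 3 adipocyte and 2 nucleus pulposus markers higher in that fit. With a replicate block it called 1 blood endothelium marker lower and 4 nucleus pulposus markers higher. The 8 blood endothelium markers, led by Pecam1 and Cdh5, had a median of -0.48, with 5 lower at an unadjusted p under 0.05, 4 lower with DESeq2 and 0 with limma-voom. The 7 mast cell markers, led by Kit, had a median of 0.03, with 0 at an unadjusted p under 0.05, 0 with DESeq2 and 0 with limma-voom. The 8 adipocyte markers, led by Fabp4 and Adipoq, had a median of 2.07 and summed to 572, 135 and 140.1 CPM against 1254, 1981 and 937 CPM, with 6 higher at an unadjusted p under 0.05, 6 higher with DESeq2 and 0 with limma-voom. The 10 annulus and cartilage markers, led by Col1a1 and Col1a2, had a median of 0.57, with 1 higher at an unadjusted p under 0.05, 2 higher with DESeq2 and 0 with limma-voom. The 6 nucleus pulposus and notochord markers, led by Car3 and Cd24, had a median of 2.38 and summed to 1677, 533 and 524 CPM against 7139, 3964 and 3490 CPM, with 5 higher at an unadjusted p under 0.05, 5 higher with DESeq2 and 0 with limma-voom, and Noto was listed at 0 in the 6 libraries. The adipocyte and nucleus pulposus sums were thus higher in each vesicle-labelled library, where Cd68, Mrc1, Il10 and Trem2 were lower. The part of cell composition in the marker levels was not tested.

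Promoter sequences from RefSeq (build GRCr8), which reach from 250 bases before to 50 bases after a gene's start, were found for 9 of the 10 markers in 10 windows, Il10 being the other marker. Motifs of factors known in macrophages were searched by their letters on both strands. GAGGAA, a core bound by PU.1, the factor that makes myeloid cells, lay in 6 of the 10 marker windows and in 27.6% of all 33469 windows. TGANTCA, the AP-1 motif, lay in 2, those of Cd68 and Trem2, and in 7.33% of all windows. A loose NF-kB motif, GGG and CC parted by 5 free bases, lay in 5 and in 47.3% of all windows, and TTCNNNGAA, the STAT motif, in 2 and in 8.87%. A match of letters is a description and not a binding site.

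The upstream 250 bases of Cd68, Trem2 and Mrc1 are shown because these were the markers with a window that lay lower without overlap, and capitals mark matches to the 4 motifs. That of Cd68 lies at chr10:54882442-54882691 on the minus strand, that of Trem2 at chr9:20151780-20152029 on the minus strand and that of Mrc1 at chr17:82157475-82157724 on the plus strand. Each has GAGGAA in its reverse form, TTCCTC, near the start, at -27 in Cd68, -29 in Trem2 and -35 in Mrc1, and Mrc1 has it also at -180. Cd68 holds TGAGTCA at -205 and -80.
Cd68: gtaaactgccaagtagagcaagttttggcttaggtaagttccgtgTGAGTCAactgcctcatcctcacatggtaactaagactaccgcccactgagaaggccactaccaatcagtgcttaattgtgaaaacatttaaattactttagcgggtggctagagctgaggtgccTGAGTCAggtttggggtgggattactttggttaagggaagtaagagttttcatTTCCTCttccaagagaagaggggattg
Trem2: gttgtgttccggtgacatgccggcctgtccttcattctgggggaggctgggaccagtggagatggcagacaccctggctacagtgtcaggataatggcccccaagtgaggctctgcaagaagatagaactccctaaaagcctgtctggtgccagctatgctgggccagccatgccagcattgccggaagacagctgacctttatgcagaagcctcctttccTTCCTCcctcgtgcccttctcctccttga
Mrc1: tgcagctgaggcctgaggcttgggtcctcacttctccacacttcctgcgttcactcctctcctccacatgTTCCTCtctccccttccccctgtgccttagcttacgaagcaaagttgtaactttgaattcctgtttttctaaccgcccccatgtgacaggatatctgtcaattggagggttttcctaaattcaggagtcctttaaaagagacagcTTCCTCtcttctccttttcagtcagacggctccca
The AP-1 match of Trem2, TGAATCA, spans the start and so is not in capitals. The windows of Adgre1, Cd86 and Marco also hold GAGGAA, and those of Cd163, Cd80 and Lyve1 do not.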

How the data were processed

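The authors deposited a table of counts, whole numbers of reads per rat Ensembl gene in 6 libraries of disc RNA, without normalization. The submitters' processing notes name FastQC, Trimmomatic, HISAT2, featureCounts and DESeq2, and as genome the mouse build mm10, although the gene identifiers are rat. Neither the rat build nor how strand and shared reads were handled is given in the sources used here, so reads shared between overlapping or similar genes could move their counts. The kit named in the sample records keeps strand.

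The quasi-likelihood fit used edgeR 4.0.16 under R 4.3.3 (TMM factors, filterByExpr at a minimum count of 10, F test), with Benjamini-Hochberg adjustment over the 15537 genes tested and calls at an adjusted p under 0.05 at any fold change. CPM were computed with TMM library sizes. Control replicates 2 and 3 were summed. The biological coefficient of variation was 0.302. Exact permutation tests were two-sided, on differences of mean log2 values, with scipy 1.17.1. Alternatives were the 6 libraries kept, a replicate block, DESeq2 1.42.0, limma-voom 3.58.1, RLE factors, library totals alone, no filter, a log2 fold change above 1 as an added criterion, and each library left out. The edgeR, DESeq2 and limma-voom fits were first tested on simulated data, where false calls made up a larger share with DESeq2 than with the others.

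The 10 markers and the 18 gene lists were chosen with earlier results of these data known. Named from each list were up to 4 called genes with the largest absolute log2 fold change, the 2 tested genes with the highest mean CPM and, for other cell types, genes at 0 in all libraries; also named were Spp1 and the 5 genes with the most counts. Some genes of the lists are not reported here by name.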

Additional observations from a re-analysis of the deposited data

How the results depend on the processing

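Over the 13 alternatives for each of 9 tested markers and Spp1, no direction turned, 118 values stayed on their side of the threshold, 6 came to pass it (Mrc1 in 3, Trem2 in 2 and Lyve1 in 1) and 6 no longer passed (Cd68 in 4 and Il10 in 2, each with a library left out). Genes called went from 575 to 2727 with the 6 libraries kept and 2572 with DESeq2, and ran from 0 to 566 with 1 library left out. Markers called went from 2 to 5 with the 6 libraries kept and 4 with DESeq2, and ran from 0 to 2 with 1 library left out. Keeping the near-identical pair as separate libraries lowers the spread by construction; for DESeq2 and the libraries left out the cause was not tested. In fits without Control replicate 1, the summed Control sample is alone and is assumed to vary like the other group.

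With the replicate block edgeR called 741 genes, 307 higher and 434 lower (58.6% lower), and 2 markers. The numbers do not pair the samples: correlations of deviations across genes were -0.326, -0.282 and -0.0756 for the same number. The ratio of Cd163 to Mrc1, added after seeing the data, differed by 1.8 to 2.35 on the log2 scale with 1 library left out. Of the list counts, 186 stayed within a factor of 1.5 and 66 did not. Depth limits Il10, with 1 or 2 counts in the vesicle-labelled libraries, and Cd86 and Cd80, with 19 to 92 counts a library.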
